A study of Mus musculus with 2 samples.

Results

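Splicing factors and general RNA-binding proteins were taken as the genes whose name on the array begins with Srsf or Sfrs (SR proteins), Hnrnp, Rbm followed by a digit, Celf, Mbnl, Snrp, Sf3a or Sf3b. The array named 101 such genes among 24078 gene names, and 88 of them had at least 1 probe well above background on both arrays, among 12518 genes measured in that way. RNA came from tibialis anterior muscle of adult male C57BL/6 mice. One sample was labelled as carrying the activated intracellular part of Notch2 as a transgene (N2ICD-mTG, here N2ICD) and the other as control, with 1 array each. The labels give neither the promoter of the transgene nor the genotype of the control beyond that word. With n = 1 per genotype no difference had a replicate check and no p-value was computed, and genotype, animal, dissection and array cannot be told apart.

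Splicing removes introns from pre-mRNA. The spliceosome is built from small nuclear ribonucleoproteins (snRNPs), whose ring of Sm proteins is encoded by most of the Snrp genes, and the SF3a and SF3b complexes belong to the U2 particle that recognises the branch point. SR proteins mostly promote the use of exons they bind, while many hnRNPs oppose it. In skeletal muscle the MBNL proteins, which expanded CUG repeats sequester in myotonic dystrophy, promote adult splice forms that CELF1 antagonises, and RBM20 and RBM24 regulate the transcripts of sarcomere proteins.

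Signals are the processed spot intensities of each array, and differences are N2ICD minus control on the log2 scale after each array was scaled to its 75th percentile, which stood at a signal of 190 in N2ICD and 169 in control. That scaling lowers N2ICD by 0.17 relative to the control on the log2 scale, so equal signals give a difference slightly below 0. The SD between repeated spots of one probe was 0.16 over 260 probes, between 0.06 for the brightest and 0.29 for the dimmest of 4 groups by level, and it holds no spread between animals. Where a gene had several probes, its difference is the mean over them, while its signal is an arithmetic mean that the bright probes set. Hes1, a direct Notch target, was 5.59-fold higher in N2ICD, with signals of 348 in N2ICD and 55.4 in control. One Notch2 probe gave 221 in N2ICD and 6.01 in control, where it was not above background, and the other, nearer the 3′ end, gave 179 in N2ICD and 189 in control. Markers of muscle fibres were measured for 10 of 10 genes, with a median difference of -0.20 and 2 of 10 above 0, against 50.5% of all genes.

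Of the 88 measured genes, 1 was at least 2-fold higher in N2ICD (1.14% of them, against 1.45% of all genes) and 0 were at least 2-fold lower (0.919% of all genes). At 1.5-fold, 3 were higher (3.41%, against 5.17% of all genes) and 0 were lower (against 4.75%). The median difference was 0.01, against 0.00 for all genes, with 45 genes above 0 and 43 below. Of all genes, 50.5% were above 0. Their SD was 0.27, against 0.38 for all genes, and their range ran between -0.47 for Rbm15b and 1.08 for Rbm26. A difference beyond 2 SD of the spot noise at its level was seen for 31 genes (35.2%), against 41.8% of all genes. These shares do not set the group as a whole apart from the other genes of the array. On a scale set by spike-in spots every difference, with the median of all genes, is higher by 0.48, so directions here are relative to the genes of the array as a whole.

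**Figure D1:**
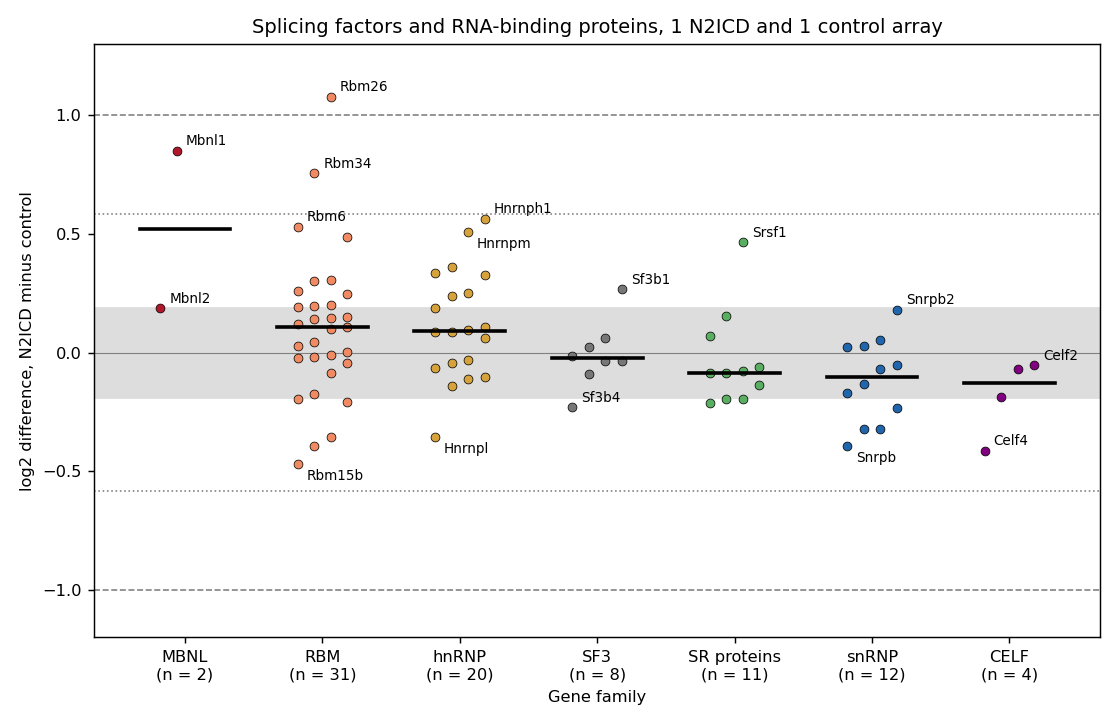
Log2 difference (N2ICD minus control) of each measured gene (points) by family, with the family median as a black line, on 1 array per genotype. Dashed lines mark 2-fold, dotted lines 1.5-fold, and the grey band is the interquartile range of all 12518 genes, between -0.19 and 0.19. Rbm26 lies above 2-fold and Mbnl1 and Rbm34 above 1.5-fold, and none lies below the lower dotted line.

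The 3 genes past 1.5-fold were Rbm26, Mbnl1 and Rbm34. They were read by the following probes (mm9, first 30 of 60 bases, 5′ to 3′, all in lower case since no part is marked), shown because each call rests on 1 or 2 probes.
Rbm26 at position 3276: caaaccaatagctaacatgtcagctgtgga
Rbm26 at position 3832: gtagatgacatagtatgctaactaacgtct
Mbnl1 at position 5510: gcagtagttgactttgctgtatggaaaaat
Rbm34 at position 3339: ctgtgtaactgttgaaattcctcctttaga
The Rbm26 probes lie on the minus strand at chr14:105516204-105516263 and chr14:105513949-105514008, the Mbnl1 probe on the plus strand at chr3:60433601-60433660 and the Rbm34 probe on the minus strand at chr8:129471105-129471164. Whether they fall in coding sequence or untranslated region was not analysed here.

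Rbm26 encodes a zinc finger and RRM protein whose human counterpart takes part in exosome-linked decay of nuclear RNA. Its probe at position 3276 gave 206 in N2ICD and 90.1 in control, and the probe at position 3832 gave 198 in N2ICD and 79.9 in control. The second is printed 10 times, and on the 8 spots that passed the quality flags the signals ran between 176 and 221 in N2ICD (median 195) and between 70.9 and 86.3 in control (median 82.6), with no overlap. The difference was 1.02 for the first probe and 1.13 ± 0.20 (SD over 8 spots of the same RNA, which are no replicates) for the second, from 0.92 to 1.47 by spot. Together this was 2.11-fold higher in N2ICD, the 155th highest difference of all genes. For comparison, Rbm14, a nuclear coactivator also printed 10 times, had a difference of -0.01 ± 0.07 over 10 spots, with median signals of 985 in N2ICD and 873 in control. Both Rbm26 probes are dim, and after normexp background correction the difference was 0.68.

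**Figure D2:**
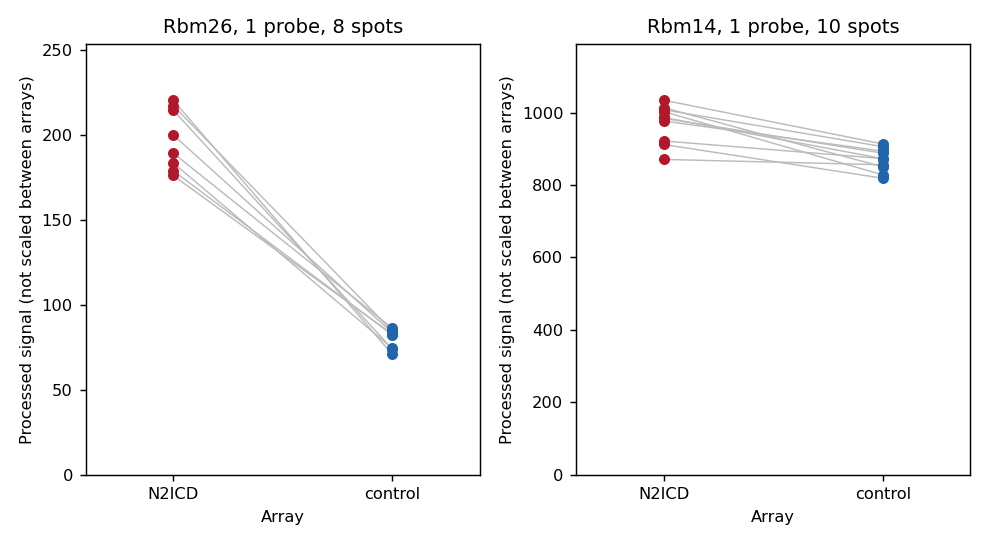
Processed signal, before scaling between arrays, of each spot of the repeated Rbm26 probe (8 spots) and Rbm14 probe (10 spots) on the N2ICD array (red) and the control array (blue). Lines join spots at the same place on the 2 arrays. All Rbm26 spots were at 176 or above in N2ICD and at 86.3 or below in control, whereas the Rbm14 spots of the 2 arrays overlap.

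The muscleblind family stood highest. Mbnl1, the main muscleblind protein of adult muscle, had a signal of 3173 in N2ICD and 1561 in control, 1.80-fold higher, on 1 probe. This probe belongs to the brightest level group, with a spot SD of 0.06. Mbnl2 had 3 probes. At position 3588 its signals were 762 in N2ICD and 521 in control, at position 2030 they were 5398 in N2ICD and 3845 in control, and at position 1699 they were 378 in N2ICD and 367 in control. The differences were 0.38, 0.32 and -0.13 in that order, with a mean of 0.19. Mbnl3 was not above background on either array.

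CELF proteins act against MBNL on many shared exons. All 4 measured genes were below 0, against 6196 of all 12518 genes. The median was -0.13. It turned to 0.02 relative to all genes with the brightest probe of each gene, and also without a filter on dim probes. Celf1, Celf2 and Celf6 were within 2 spot SD, and Celf1, Celf2 and Celf4 each had probes on both sides of 0. Celf1, raised in human myotonic dystrophy, averaged -0.07 over 3 probes (-0.38 to 0.15). Celf2 averaged -0.05 over 3 probes, and its brightest probe gave 3988 in N2ICD and 3472 in control. Celf6 gave 83.2 in N2ICD and 83.9 in control, a difference of -0.19 on 1 dim probe. Celf4 averaged -0.41, but its probes opposed each other. The probe at position 2452 gave 654 in N2ICD and 494 in control (0.23), while that at position 1054, on another transcript of the gene, gave 46.3 in N2ICD and 85.6 in control (-1.06). Celf3 and Celf5 were not above background on either array.

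RBM genes had a median of 0.11, with 20 of 31 measured genes above 0, against 50.5% of all genes. Rbm34, an RNA-recognition-motif protein, gave 204 in N2ICD and 107 in control, 1.69-fold higher, on 1 probe, a difference of 0.76 that was 0.40 after normexp background correction, under 1.5-fold. Rbm6, an exon regulator related to Rbm5, gave 271 in N2ICD and 166 in control (0.53), and Rbm5 itself gave 2096 in N2ICD and 1826 in control (0.03). Rbm38, a p53 target that stabilises transcripts and promotes late myogenic splicing, gave 2752 in N2ICD and 1741 in control (0.49). Its close relative Rbm24, the muscle-enriched splicing regulator, gave 6855 in N2ICD and 6968 in control (-0.20). So these paralogues of one subfamily lay on opposite sides of 0, on 1 probe each. Both differed by more than 2 spot SD, as did 41.8% of all genes. The Rbm24 difference is smaller in size than the SD of 0.25 between probes of a gene.

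Rbm45 (0.30, 2 probes at 0.07 and 0.54) and Rbm12b2 (0.30) are dim and within 2 spot SD, and after normexp background correction they were at 0.09 and 0.05. Further RBM genes above 0 included the splicing factor Rbm17, also known as SPF45 (0.26, with 1009 in N2ICD and 748 in control), and Rbm39 (0.25, with 1944 in N2ICD and 1452 in control). A second Rbm39 probe, on another transcript, was above background on the N2ICD array alone, at 69.7 in N2ICD and 27.4 in control. After scaling this was 2.26-fold higher than its own control reading, which was not above background. For a probe above background on 1 array alone, the fold is taken against the dimmest level counted as above background on the other array. Where the probe itself read more than that there, as for Rbm39, its own reading is used instead. The direction of such a probe follows from how it was picked. Rbm3, a cold-inducible protein, had 1 probe with 4207 in N2ICD and 3212 in control and another with 2123 in N2ICD and 1787 in control, a mean difference of 0.15. Cirbp, the other cold-inducible protein of this kind, gave 1457 in N2ICD and 1594 in control (-0.30). Rbm8a, the Y14 subunit of the exon junction complex, was at 0.11. Rbm42 gave 8589 in N2ICD and 7399 in control (0.04).

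At the lower end of the family, Rbm15b, which helps recruit the m6A writer complex, gave 90.1 in N2ICD and 111 in control (-0.47), and Rbm4b gave 29.0 in N2ICD and 33.8 in control (-0.39). Rbm27, the closest relative of Rbm26, gave 57.1 in N2ICD and 64.9 in control (-0.36). All 3 are dim, and each difference was within 2 spot SD at its level. Rbm20, the titin splicing regulator, averaged -0.21 over 2 probes that disagreed. The remaining RBM genes lay between -0.17 (Rbm48) and 0.20 (Rbm18).

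In the hnRNP family all 20 genes were measured, 13 were above 0 (against 50.5% of all genes) and the median was 0.09. Hnrnph1, a G-run binding regulator of exon inclusion, gave 2095 in N2ICD and 1257 in control on 1 probe (0.56, 1.48-fold). This is just under the 1.5-fold threshold, which it passed with normexp, with median scaling and on the spike-in scale. Hnrnpm, a regulator of exon choice, gave 619 in N2ICD and 386 in control (0.51). The A/B and D subfamily, abundant repressors of exon use, had 6 of 7 genes above 0 with a median of 0.19. Among them Hnrnpdl, mutated in a human limb-girdle muscular dystrophy, had 3342 in N2ICD and 2364 in control on one probe and 336 in N2ICD and 238 in control on the other, and the difference was 0.33 on both. Hnrnpa2b1 gave 1369 in N2ICD and 1066 in control (0.19). Hnrnpa1 gave 690 in N2ICD and 443 in control on the probe at position 1747 (0.47) and 67.9 in N2ICD and 58.8 in control on that at position 612 (0.04). Hnrnpab had a difference of -0.03, its probes giving 5305 in N2ICD and 4663 in control and 3454 in N2ICD and 3235 in control.

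Hnrnpr was at 0.34 on its measured probe (525 in N2ICD, 369 in control) and Hnrnpu, a chromatin-bound scaffold protein, at 0.24 (736 in N2ICD, 555 in control). Hnrnpl, a CA-repeat binding regulator, was the lowest of the family, at 65.6 in N2ICD and 74.5 in control (-0.36), which is within 2 spot SD of this dim level. Its paralogue Hnrnpll was at 0.11. Hnrnpk, Hnrnpf and Hnrnpc lay between -0.14 and -0.10, with all of their 7 measured probes below 0.

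Of the SR proteins, 11 of 12 were measured and 3 were above 0, against 50.5% of all genes. The median was -0.08, which turned to 0.08 relative to all genes without a filter on dim probes. Srsf1, the classical SR protein, stood apart from the others with a mean difference of 0.46. Its probe at position 5317 gave 140 in N2ICD and 73.2 in control (0.77), that at position 5399 gave 212 in N2ICD and 133 in control (0.50), and that at position 2850 gave 368 in N2ICD and 300 in control (0.13). Srsf5 gave 657 in N2ICD and 669 in control and Srsf9 gave 670 in N2ICD and 681 in control, both at -0.20. Srsf3 averaged -0.08 over 3 probes (-0.21 to 0.09), and Srsf2, Srsf4, Srsf6 and Srsf11 lay between -0.14 and -0.06. Srsf10, which can act as a repressor, was at -0.21 on its measured probe, within 2 spot SD. Another Srsf10 probe was above background on the control array alone, at 25.8 in N2ICD and 31.8 in control. Taken against the dimmest level counted on the N2ICD array, this is 1.32-fold lower. The direction follows from how that probe was picked. Srsf7 had 2 probes on opposite sides, 0.38 at position 907 and -0.24 at position 1343. Sfrs18, today named Pnisr, was at 0.15 with probes at 0.46 and -0.16.

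The snRNP family had all 12 genes measured, a median of -0.10 and 4 above 0, against 50.5% of all genes. Of the 12 genes 7 differed by more than 2 spot SD, against 41.8% of all genes. Their probes are bright, with a median scaled log2 level of 2.87 against 1.19 for all genes. At bright levels the spot SD is smaller, so smaller differences pass. Snrpb, which encodes the Sm proteins B and B′, gave 1980 in N2ICD and 2309 in control (-0.39), the lowest of the family. Snrpd3 gave 2857 in N2ICD and 3168 in control (-0.32). Snrpn, the imprinted paralogue of Snrpb, had probes at -0.20 (832 in N2ICD, 849 in control) and -0.44 (294 in N2ICD, 354 in control). Of the 8 Sm genes, 2 were above 0, Snrpe at 0.05 and Snrpf at 0.02, and the others included Snrpg at -0.13, Snrpd2 at -0.07 and Snrpd1 at -0.05. Among proteins specific to the U1 or U2 particle, Snrpa, of U1, gave 1159 in N2ICD and 1212 in control (-0.24) and Snrpb2, of U2, gave 1294 in N2ICD and 1013 in control (0.18). Snrpa1, the binding partner of Snrpb2, was at -0.17, with probes at -0.16 and -0.19, and Snrpc, of U1, was at 0.03.

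The 8 genes of SF3a and SF3b, all measured, had a median of -0.02, which turned to 0.06 relative to all genes without a filter on dim probes. The SF3a subunits Sf3a1, Sf3a2 and Sf3a3 lay between -0.09 and -0.04. Sf3b1, the branch point clamp, was at 0.27 on 1 dim probe (81.2 in N2ICD, 59.9 in control), within 2 spot SD, and Sf3b5, Sf3b3 and Sf3b2 lay between -0.01 and 0.06. Sf3b4 gave 1164 in N2ICD and 1212 in control (-0.23). A second Sf3b4 probe was above background on the control array alone, at 18.8 in N2ICD and 42.2 in control. Taken against the dimmest level counted on the N2ICD array, this is 1.75-fold lower, and its direction follows from how the probe was picked. Sf3b4 was the sole gene of the 8 beyond 2 spot SD, against 41.8% of all genes.

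The hnRNP and snRNP families, set side by side after their values were seen, differed by 0.19 in their medians (hnRNP minus snRNP). Of the 20 hnRNP genes 17 lay above the snRNP median, against 65.1% of all genes. Of the 12 snRNP genes 11 lay below the hnRNP median, against 63.1% of all genes. This is a description of 2 arrays without a test. The difference of medians lay between 0.18 and 0.26 under the 9 other ways of processing that can move it. The families differ in where their probes lie and in level, with a median probe position of 1634 bases for hnRNP and 427 bases for snRNP genes, and a median scaled log2 level of 1.45 for hnRNP and 2.87 for snRNP genes. Removing a smooth trend on level gave 0.26 and removing one on position gave 0.19. Over all genes the median was -0.00 both within the first 500 bases and between bases 1001 and 2000. The position step could therefore move this gap little, and the part of probe position in it was not tested.

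Probes of the same gene often disagreed. Of 37 genes with several measured probes, 18 had all of them on the same side of 0 and 19 did not. The SD between probes of one gene was 0.25 over all genes. Probes differed by 1 or more for Rbm25, Celf4 and Hnrnpa3, and those of Rbm20 by 0.84. Pairs of probes that read 1 gene differently are printed here (mm9, first 30 of 60 bases, 5′ to 3′) so that they can be placed.
Rbm25 at position 4106: gagaggacgtccaaaacactgtttttaatg
Rbm25 at position 1300: cttcacaggttggactttgggactggaaaa
Rbm20 at position 5165: ttagtggaaggtcttaggacaggggtacta
Rbm20 at position 1850: caatggcgagaagttactcattcgcatgtc
Hnrnpa3 at position 1732: aacacccactgacttgcaatttaaggggaa
Hnrnpa3 at position 644: tgtgaagtgaaaaaggccctttctaaacaa
Srsf1 at position 5317: ccagagtagatgcctttattgtgtaatttg
Srsf1 at position 2850: ataggatagggaggatgaattaccaggatt

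Rbm25, a splicing factor with a PWI domain, is read by 2 probes of different transcripts on the plus strand. The probe at position 4106 of the RefSeq transcript (chr12:85023936-85023995) gave 201 in N2ICD and 99.6 in control, a difference of 0.84. The other, at position 1300 of an Ensembl transcript (chr12:84974676-84974735), gave 62.6 in N2ICD and 80.8 in control, a difference of -0.54. The mean of 0.15 therefore describes neither probe.

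Both Rbm20 probes lie in 1 transcript on the plus strand. The one at position 5165 (chr19:53940144-53940203) gave 101 in N2ICD and 77.3 in control (0.21), and the one at position 1850, whose 60 bases span 6259 bases of the genome (chr19:53909212-53915470) and so cross an exon junction, gave 195 in N2ICD and 268 in control (-0.63). No direction can be given for Rbm20 as a gene.

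Hnrnpa3 has 7 measured probes on the plus strand of chromosome 2. In the order of their positions, 644, 858, 1438, 1732, 1796, 2451 and 5126, the differences were -0.26, 0.09, 0.49, 0.77, 0.65, 0.28 and 0.51. At position 1732 (chr2:75503973-75504030) the signals were 1280 in N2ICD and 668 in control. At position 644 (chr2:75500576-75500719, across an exon junction) they were 77.8 in N2ICD and 82.8 in control. The first 2 probes carry another RefSeq accession than the other 5, which were all above 0.

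**Figure D3:**
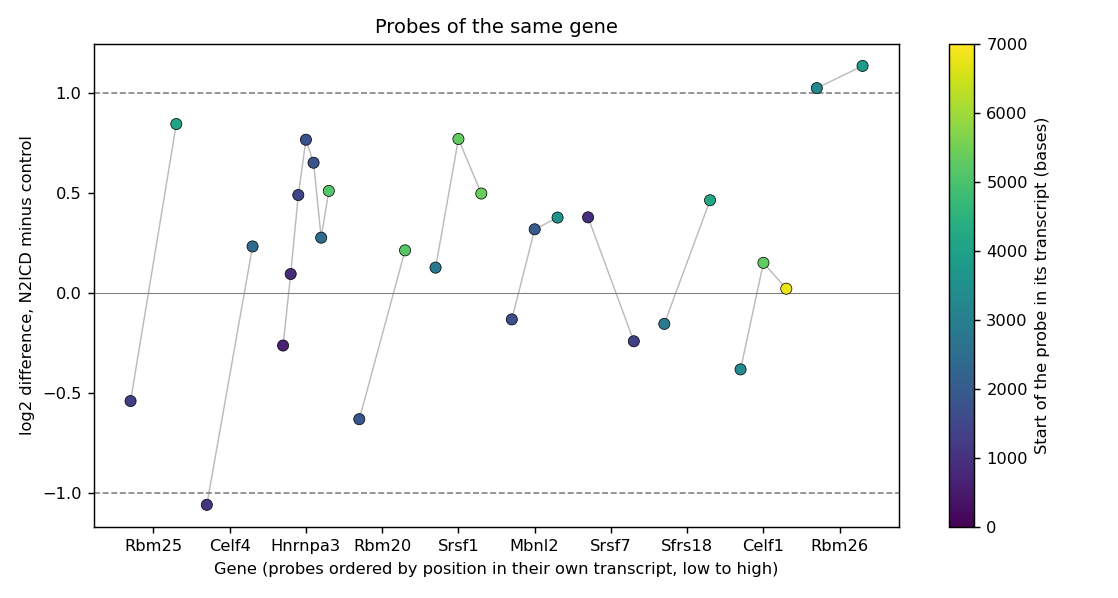
Log2 difference (N2ICD minus control) of each measured probe of 10 genes, ordered within a gene by position in the transcript the array assigns it to and coloured by that position in bases. Grey lines join probes of one gene and dashed lines mark 2-fold. The probes of Rbm25, Celf4 and Hnrnpa3 differ by 1 or more, while both probes of Rbm26 lie above the upper dashed line.

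The difference also moved with the position of a probe along its transcript. Over all transcripts with 2 or more measured probes and outermost probes over 2000 bases apart, the 3′ probe's difference exceeded that of the 5′ probe by a median of 0.13, and was the higher one in 354 of 532 transcripts (66.5%). With probes at most 500 bases apart the median was -0.00, with 432 of 884 (48.9%). Among splicing factor transcripts with a distance over 2000 bases, the 3′ probe was higher in 5 of 7, with a median of 0.11. The widest of these was Rbm20 at 0.84, followed by Celf1 at 0.40 and Srsf1 at 0.37. Over 1000 and up to 2000 bases apart, the 3′ probe was higher in 6 of 8 splicing factor transcripts. Their median was 0.00, against 0.10 for all transcripts. Among transcripts with distances up to 2000 bases, Mbnl2 was at 0.51 and Srsf7 went the other way at -0.62. Between genes, the median of splicing factor probes was 0.21 where the probe lay beyond base 4000 (15 probes) and -0.13 within the first 500 bases (16 probes, 12 of them in snRNP genes), against 0.03 and -0.00 for probes of all genes. In the ranges between, starting at bases 501, 1001, 2001 and 3001, the splicing factor medians were 0.06, -0.07, 0.10 and 0.14. The rise was therefore not even. The Rbm26, Mbnl1 and Rbm34 probes lie between positions 3276 and 5510. The part of probe position in the family differences was not tested. Removing the smooth trend on position moved no gene by more than the spot SD of 0.16. The medians of all genes by range of position lay between -0.01 and 0.03, so this step had little to remove.

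**Figure D4:**
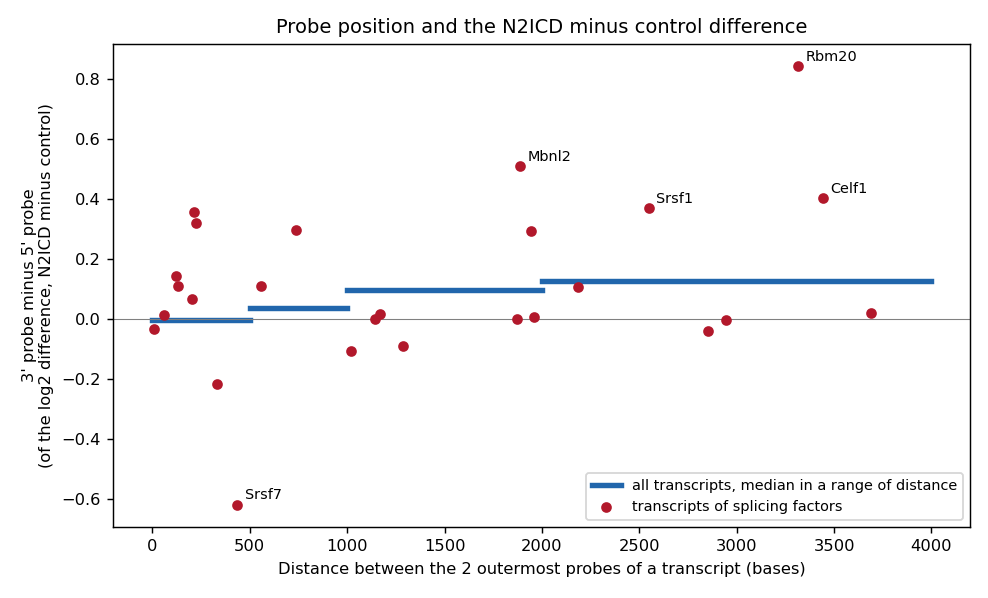
Difference between the 3′ and the 5′ outermost probe of a transcript (each probe's value is N2ICD minus control on the log2 scale) against the distance between them in bases. Red points are transcripts of splicing factors and blue lines the medians of all transcripts within a range of distance, the last of which holds every distance over 2000 bases. The medians lie between -0.00 and 0.13, and Rbm20 is the highest point at 0.84.

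Promoter sequences from RefSeq (GRCm38.p6, 250 bases before the start) matched 74 of the 88 measured genes. The letters TGGGAA, the core bound by the Notch effector RBPJ, were searched on both strands and were found in 12 of 74 (16.2%), against 23.8% of 8917 measured genes and 21.6% of all 32851 promoters in the table. The longer form GTGGGAA, which contains the shorter one, was in 2 of 74 (2.70%), against 6.12%. Of hnRNP promoters 0 of 18 held the short form and of snRNP promoters 2 of 10. The promoters of the 2 leading RBM genes are printed with a match in capitals. That of Rbm26 holds 1 match, TTCCCA, and that of Rbm34 and both of Mbnl1 hold none. A match is a run of letters and says nothing about binding.
Rbm26, chr14:105177315-105177564, minus strand: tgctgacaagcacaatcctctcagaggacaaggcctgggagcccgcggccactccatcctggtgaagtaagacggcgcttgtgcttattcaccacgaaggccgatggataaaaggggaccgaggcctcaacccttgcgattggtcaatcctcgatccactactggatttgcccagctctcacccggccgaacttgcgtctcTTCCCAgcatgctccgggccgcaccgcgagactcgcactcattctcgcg
Rbm34, chr8:126971050-126971299, minus strand: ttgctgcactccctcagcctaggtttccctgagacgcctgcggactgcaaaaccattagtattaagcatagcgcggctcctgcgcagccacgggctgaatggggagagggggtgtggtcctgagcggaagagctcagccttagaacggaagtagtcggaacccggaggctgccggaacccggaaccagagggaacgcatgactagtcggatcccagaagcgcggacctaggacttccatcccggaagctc

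The 7 lists of other RNA-processing genes were set beside the families. Their counts past 1.5-fold stand against 5.17% of all genes higher and 4.75% lower. Raly, an hnRNP C-like protein whose name falls outside the family pattern, gave 3595 in N2ICD and 1033 in control on 1 probe, 3.09-fold higher, more than any of the 88 genes. In its list of 13 measured relatives (median 0.03), 3 were past 1.5-fold higher and 0 lower. Beside Raly these were Syncrip and the testis-type paralogue Rbmxl2. Syncrip, also called hnRNP Q, gave 411 in N2ICD and 189 in control (0.79 from probes at 1.16 and 0.41). Rbmxl2 gave 52.8 in N2ICD and 28.2 in control (0.73) on 1 dim probe.

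Tissue splicing regulators had a median of -0.13 over 34 genes, with 3 past 1.5-fold higher and 1 lower. Qk, the quaking protein that regulates muscle and glial exons, was higher on 5 of 5 probes, between 0.58 and 1.03, with mean signals of 2159 in N2ICD and 1213 in control. Matr3, a nuclear matrix protein mutated in a human distal myopathy, gave 244 in N2ICD and 125 in control (0.79), and Msi2, a translational regulator, gave 6579 in N2ICD and 3692 in control (0.66). Nova1, best known from neurons, was the lower one, at 76.1 in N2ICD and 109 in control (-0.69) on 1 dim probe. Ptbp1, the repressor that falls during muscle differentiation, was at -0.55 with probes at -0.31 (258 in N2ICD, 284 in control) and -0.80. Rbfox1, the main GCAUG-binding regulator of muscle, was at 0.16, with 13369 in N2ICD and 10798 in control on its brighter probe.

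SR protein kinases and cofactors had a median of 0.15 over 20 genes, with 1 past 1.5-fold higher, Pnn, which encodes the SR-like protein pinin (362 in N2ICD, 175 in control, 0.87), and 0 lower. Clk4, an SR protein kinase, gave 433 in N2ICD and 278 in control (0.47), Scaf11 was at 0.42, Srrm2 at -0.43, and the muscle-specific kinase Srpk3 at -0.10. Of 9 U2 auxiliary and branch point factors 0 passed 1.5-fold. The 2 subunits that read the 3′ splice site were both below 0. U2af1 had 2937 in N2ICD and 2971 in control on one probe (-0.19) and 108 in N2ICD and 185 in control on the other (-0.95), and U2af2 had 81.5 in N2ICD and 97.1 in control (-0.47). The helicases Ddx46 and Dhx15 were at 0.41 and 0.38.

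Of 34 measured tri-snRNP and Prp19 complex genes (median 0.04), 1 was past 1.5-fold higher and 0 lower. It was Snrnp48, of the minor spliceosome, with 161 in N2ICD and 77.1 in control (0.89) on 1 dim probe. The helicase Dhx8 gave 1450 in N2ICD and 1877 in control (-0.54), and Cwc15 and Prpf18 were both at 0.34. Of 10 LSm genes (median 0.07) 1 was higher, Lsm14b at 0.85 with probes at 1.21 and 0.48, and 0 lower, with Lsm4 at 0.31, Lsm7 at -0.23 and Lsm5 at 0.18. Of 16 exon junction and nonsense-mediated decay genes (median -0.02) 1 was higher, Upf2, a core decay factor, at 0.88 (206 in N2ICD, 99.4 in control), and 0 lower, with Smg9 at 0.43, Smg1 at -0.34 and Smg5 at 0.33. These lists were chosen with earlier results known, and with 0 to 3 genes called in each direction no list is called particular here. Values after normexp background correction are not given for the list genes.

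**Figure D5:**
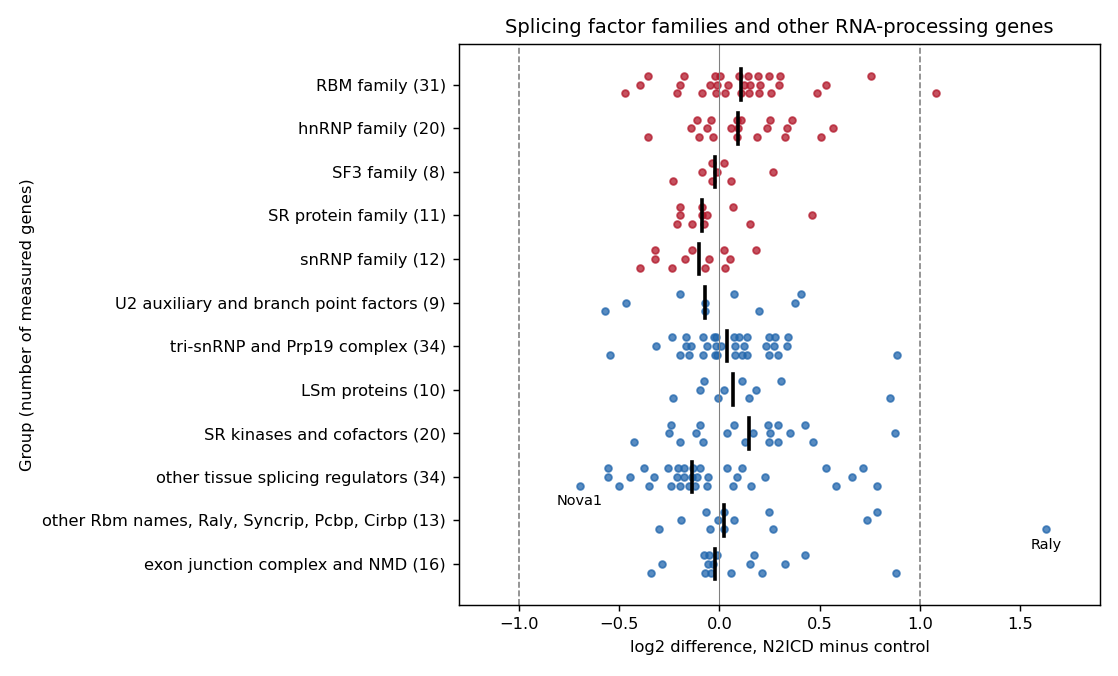
Log2 difference (N2ICD minus control) of each measured gene (points) in the 5 larger splicing factor families (red) and in 7 lists of other RNA-processing genes (blue), with group medians as black lines and 2-fold as dashed lines. Raly, at 1.63, is the sole point beyond 2-fold in the blue lists, and Nova1, at -0.69, the lowest point.

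In whole muscle fewer cells of a type and less RNA per cell cannot be told apart. The sums below are of signals before scaling between arrays and are set mostly by the brightest genes. The medians are of scaled differences, so a sum and a median can point opposite ways. Fibre markers (10 of 10 measured, median -0.20) summed to a signal of 2972260 in N2ICD and 2984610 in control. Markers of fibroblasts and matrix (10 of 10 measured, median -0.27) summed to a signal of 97461 in N2ICD and 107248 in control. Endothelial markers (10 of 10, -0.20) summed to 13032 in N2ICD and 13818 in control, and those of macrophages and leukocytes (8 of 10, -0.18) to 8195 in N2ICD and 7743 in control. Markers of nerve and Schwann cells (8 of 10, 0.04) summed to 10381 in N2ICD and 8794 in control, and erythroid markers (5 of 6, -0.16) to 43025 in N2ICD and 40793 in control. Immediate early and stress genes had 5 of 10 measured genes at least 2-fold higher, against 1.45% of all genes, and 0 lower, against 0.919%. They had a median of 0.84 and summed signals of 20409 in N2ICD and 12636 in control. The part of these differences in the values of the splicing factors was not tested.

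The 13 names without a measured probe were Srsf12, Rbm11, Rbm12b1, Rbm31y, Rbm41, Rbm44, Rbm46, Rbm47, Celf3, Celf5, Mbnl3 and 2 names of antisense genes, Rbm3os and Rbm46os. Just outside the threshold lay Rbm47 with 19.7 in N2ICD and 27.8 in control on its brighter probe, Celf5 with 22.8 in N2ICD and 20.4 in control on its brightest probe, and Rbm12b1 with 22.5 in N2ICD and 15.2 in control. Rbm11 was near the threshold on the control array alone, with 6.74 in N2ICD and 23.4 in control. Just inside lay Rbm4b, at 29.0 in N2ICD and 33.8 in control. None of the 101 genes was above background on 1 array alone over all of its probes, so the filter removed no gene that passed it on 1 array. Rbm11 passed it on neither, and without the filter it is counted at least 2-fold lower.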

How the data were processed

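RNA of 2 muscles was labelled with Cy3 and hybridised to 1 array each. Per the file headers, the deposited spot intensity came from version 10.10.1.1 of Agilent's Feature Extraction, which subtracted background within an array and left the arrays unscaled. The authors' deposited table holds a fold (ratio) with its direction and a normalized log2 value per array, and was used as an alternative. The headers give mm9 for probe positions.

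From the log2 signal, the 75th percentile of the 59305 non-control spots of the same array was subtracted. The 215 spots flagged on either array were left out, spots of a probe averaged, and probes well above background on both arrays averaged per gene. Spots well above background numbered 24982 in N2ICD and 24916 in control, and 0 were saturated. The number of arrays limits the precision. Genes were counted at 2-fold and 1.5-fold, with no test. The members and lists were chosen with earlier results of these data known. The named genes were all CELF, MBNL and SF3 genes, in the other families the 8 with the largest difference and the 3 with the highest signal, every gene past 1.5-fold, genes whose probes differ by 1 or more, 9 fixed by name, and up to 4 per list with 4 fixed by name; further genes were named after their values were seen. The 10 alternatives listed at the start changed background, scaling, filter or probe choice. A smooth trend on probe position and leaving out the 3′ most probe were added after seeing the data. The steps were tested on simulated data. Python 3.11.15, R 4.3.3 and limma 3.58.1 were used.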

Additional observations from a re-analysis of the deposited data

How the results depend on the processing

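The count of genes at least 2-fold higher, 1 as reported, was 0 with normexp background correction, 5 on a scale set by 7 spike-in probes and 2 without the filter on dim probes. At least 2-fold lower, 0 as reported, was 1 without the filter and 1 without the 3′ most probe of genes with several. The count at least 1.5-fold higher, 3 as reported, was 5 with median scaling, 31 on the spike-in scale, which shifts the median of all genes to 0.48, 7 without the filter, 4 with probes above background on at least 1 array (Rbm39 added) and 4 with the brightest probe (Rbm25 added). At least 1.5-fold lower, 0 as reported, was 1 with probes above background on at least 1 array (Sf3b4), 2 without the filter, 1 with the brightest probe of each gene (Rbm20) and 2 without the 3′ most probe (Celf4 and Rbm20). Shares of all genes are given for the reported processing alone, so these counts have none beside them. Without the filter the count is over 101 names among 24078 genes, instead of 88 among 12518. It then takes in Rbm46os (higher) and Rbm11 (lower), not above background on either array. Rbm39 and Sf3b4 were added through probes above background on 1 array alone, whose direction follows from that pick. The family medians minus the all-gene median that moved by more than the spot noise were those of SR proteins (0.0781, against -0.09 as reported) and MBNL (0.27, against 0.52 as reported), both without the filter. Without it the CELF median (0.02) and the SF3 median (0.06) also changed sign, as did the CELF median with the brightest probe (0.02), while the RBM and hnRNP medians stayed above 0 and the snRNP median below 0 under the 9 alternatives that can move them. The other 3 add the same constant to every gene. The causes were not tested. Rbm26 and Mbnl1 were at least 1.5-fold higher under all 12 alternatives, and Rbm34 under all but normexp. With normexp the 3 genes were Rbm26, Mbnl1 and Hnrnph1. Under the spike-in scale the difference of all 88 genes moved by more than the spot noise, under normexp that of 11, with the brightest probe or without the filter that of 10 each. No paired analysis was possible because each genotype has 1 array, and for the same reason no replicate could be left out. Depth in the sense of signal over background limits the dim genes most, where the spot SD was 0.29.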

Other observations

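Some probes of measured genes were not well above background on either array yet read differently on them, and belong to no comparison. The Hnrnpr probe at position 7922 gave 23.6 in N2ICD and 6.33 in control, and the Hnrnph3 probe at position 2075 gave 25.5 in N2ICD and 7.58 in control. The Rbm19 probe at position 1399 went the other way, with 10.5 in N2ICD and 21.7 in control. No fold is given at such signals. In the authors' deposited table, the repeated Rbm26 probe is listed as 2.20-fold up and the Rbm34 probe as 1.71-fold up.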
